A study of Homo sapiens with 32 samples.

Results

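The clustered histone genes of the human genome were followed across all 8 groups of a study of LNCaP and C4-2B cells. LNCaP is a prostate cancer line that responds to androgen, and C4-2B was derived from LNCaP and grows under castrate conditions. Members were all rows of the gene table whose symbol begins HIST1H, HIST2H, HIST3H or HIST4H, without names that end in PS and a digit. The rule took 72 of 29744 genes and left out 1 by that ending. Of the 72, 55 lie in the HIST1 cluster on chromosome 6, 13 in HIST2 and 3 in HIST3 on chromosome 1, and 1 on chromosome 12. By protein they comprise 6 linker histone (H1), 17 H2A, 20 H2B, 14 H3 and 15 H4 genes. HIST2H2BA and HIST2H2BC are annotated as pseudogenes and stayed in by name.

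The libraries were made from polyadenylated RNA with a strand-specific kit, and each of the 8 groups holds 4. Each line received control siRNA (siCTRL) or siRNA against MOCOS (siMOCOS), without or with thapsigargin (TG). The design text gives vehicle to the controls and calls the replicates biological. MOCOS, molybdenum cofactor sulfurase, completes the cofactor of xanthine dehydrogenase and aldehyde oxidase, and TG blocks the SERCA calcium pump and so causes endoplasmic reticulum (ER) stress. The labels used here give no TG dose or duration. Of 2 siRNAs against MOCOS, each has 2 libraries per line and drug, but the columns are numbered without naming the siRNA, so the 4 were pooled and the p-values treat both siRNAs as replicates.

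Replication-dependent histone genes supply the bulk of the proteins that package new DNA in S phase. Their transcripts usually end just after a short stem-loop that binds SLBP, the stem-loop binding protein, and carry no poly(A) tail. They are transcribed at histone locus bodies under NPAT, which cyclin E-CDK2 activates. Some of these genes, among them HIST2H2BE, HIST1H2BD, HIST1H2BK and HIST1H1C, are known to make polyadenylated transcripts as well, by reading past the stem-loop to a later signal. Libraries made from polyadenylated RNA therefore show that form and hold little of the stem-loop form.

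The stem-loop was searched in the GENCODE 29 transcript models (GRCh38) as GGCNCTTTTNAGNGCC on the transcript strand, N being any base. It was found in 32 of 72 members and in 34 of 19669 coding genes, 0.173%. For 35 of the 40 members without a match, the models have a length that is a multiple of 3 and at most 700 bases. Such lengths are usual for models of the coding sequence alone, though that of HIST1H4C, at 435 bases, is longer than most H4 models without a match. No match says only that these letters are not in the models. In 26 members at least 1 transcript ran more than 50 bases past the stem-loop or lacked it. The windows of 6 members that the comparisons turn on are shown, with the stem-loop in capitals.
HIST2H2BE, chr1:149886183-149886208, minus strand: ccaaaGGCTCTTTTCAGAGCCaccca
HIST1H2BC, chr6:26123467-26123492, minus strand: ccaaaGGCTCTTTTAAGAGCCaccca
HIST1H2BD, chr6:26158582-26158607, plus strand: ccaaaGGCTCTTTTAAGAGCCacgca
HIST3H2BB, chr1:228458533-228458558, plus strand: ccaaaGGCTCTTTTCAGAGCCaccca
HIST1H4H, chr6:26285126-26285151, minus strand: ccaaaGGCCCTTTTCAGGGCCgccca
HIST2H4A, chr1:149833027-149833052, plus strand: ccaaaGGCCCTTTTTAGGGCCgacca
The HIST2H2BE model runs 1729 bases past its stem-loop, and the longest HIST1H4H model runs 1655 bases past. The H2B members shown have GGCTC in the first arm and the H4 members GGCCC. Across the 32 members, 17 held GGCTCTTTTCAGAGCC, 5 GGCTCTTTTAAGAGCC, 5 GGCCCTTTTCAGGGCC, 3 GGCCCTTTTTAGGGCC and 2 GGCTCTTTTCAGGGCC.

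Promoters of 65 members were found in the RefSeq table (GRCh38.p14), each with 250 bases before the start and 50 after. These 3 motifs were searched on both strands. The octamer ATTTGCAT, the sequence that OCT1 binds in H2B promoters, was in 26 of these 65 against 1.77% of 35116 promoters of the same length. It was in 14 of 18 H2B and 11 of 16 H2A promoters, in 1 of 12 H3 promoters, and in no H1 (0 of 6) or H4 (0 of 13) promoter. CCAAT was in 84.6% of the members' promoters against 34.6% of all, and TATAAA in 66.2% against 11.5%. Windows of H2A and H2B genes that start close together on opposite strands can overlap, so a single motif can be counted for both genes. The windows of HIST1H2AG and HIST1H2BJ, for example, overlap and hold the same octamer. The H3 window with the octamer, that of HIST1H3D, is also the window of HIST1H2AD. The counts and shares are therefore of windows that are not all independent. The 250 bases before the start are shown for 3 H2B genes and 1 H4 gene that the comparisons turn on, with the motifs of both strands in capitals. CCAAT and TATAAA on the other strand read as ATTGG and TTTATA.
HIST2H2BE, chr1:149886683-149886932, minus strand: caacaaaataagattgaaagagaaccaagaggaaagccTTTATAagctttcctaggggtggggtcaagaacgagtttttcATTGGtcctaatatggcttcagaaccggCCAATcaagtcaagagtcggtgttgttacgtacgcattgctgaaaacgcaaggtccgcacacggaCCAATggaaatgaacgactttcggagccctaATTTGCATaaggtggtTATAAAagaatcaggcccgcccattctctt
HIST1H2BK, chr6:27146859-27147108, minus strand: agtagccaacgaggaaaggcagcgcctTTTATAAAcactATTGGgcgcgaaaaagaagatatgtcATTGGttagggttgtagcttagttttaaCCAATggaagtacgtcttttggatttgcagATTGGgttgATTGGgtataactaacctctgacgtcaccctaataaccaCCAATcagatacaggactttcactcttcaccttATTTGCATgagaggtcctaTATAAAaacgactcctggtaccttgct
HIST1H2BJ, chr6:27132796-27133045, minus strand: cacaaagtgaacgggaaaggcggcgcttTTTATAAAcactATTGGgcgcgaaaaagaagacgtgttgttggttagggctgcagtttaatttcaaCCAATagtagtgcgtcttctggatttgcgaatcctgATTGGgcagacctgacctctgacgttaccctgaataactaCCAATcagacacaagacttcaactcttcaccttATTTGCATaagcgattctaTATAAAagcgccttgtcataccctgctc
HIST1H4H, chr6:26285535-26285784, minus strand: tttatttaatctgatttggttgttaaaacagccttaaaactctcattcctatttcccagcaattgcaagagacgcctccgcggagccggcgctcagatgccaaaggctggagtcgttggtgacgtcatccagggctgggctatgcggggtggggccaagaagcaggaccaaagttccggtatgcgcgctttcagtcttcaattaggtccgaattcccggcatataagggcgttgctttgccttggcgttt
All 3 H2B promoters hold the octamer followed by TATAAA, and the HIST1H4H window holds none of the 3 motifs.

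Library totals ran from 7.51 to 27.1 M expected counts. MOCOS, the knockdown target, was lower in every knockdown comparison: in C4-2B it averaged 31.5 ± 2.05 CPM (counts scaled to TMM-adjusted library totals; SD, n = 4) with siCTRL and 3.42 ± 1.06 with siMOCOS, and in LNCaP 24.3 ± 0.680 and 3.75 ± 0.296. It also rose with TG, to 89.4 ± 2.68 and 96.1 ± 5.11 CPM. The 7 luminal markers summed to 683 to 5509 CPM per library, the 4 basal and mesenchymal markers to 2.46 to 20.1, and the 6 immune, stromal and endothelial markers found to 4.69 to 25.6. None of the luminal markers was at 0 in any library. Their sum was 1589 to 1822 CPM in C4-2B siCTRL cells, 683 to 757 with TG, 2242 to 2879 with siMOCOS and 787 to 971 with both. In LNCaP it was 4056 to 4537, 1194 to 1367, 4010.3 to 5509 and 1367 to 1559 CPM. It was thus lower with TG in both lines and higher with knockdown in C4-2B, without overlap. The part of these differences in the results was not tested.

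Most members were barely detected. A member was called measurable in a group when all 4 libraries held at least 10 expected counts. By that rule 10 members were measurable in all 8 groups, 28 in at least 1 and 44 in none, and 8 were at 0 in every library. The 10 were the H2B genes HIST2H2BE, HIST1H2BK, HIST1H2BD, HIST1H2BC, HIST2H2BF and HIST2H2BC, the H2A gene HIST1H2AC, the linker histone gene HIST1H1C, and the H4 genes HIST1H4E and HIST1H4H. By protein, 13 of 20 H2B members were measurable in at least 1 group, against 6 of 17 H2A, 3 of 6 H1, 2 of 14 H3 and 4 of 15 H4. The rule takes no account of transcript length, so these numbers do not rank the classes by molecules. All counts of measurable members take HIST2H2AA3, HIST2H2AA4, HIST2H4A and HIST2H4B singly, though counts move between these near-identical copies, as described below. Summed, HIST2H2AA3 with HIST2H2AA4 gave at least 1.57 CPM in every library, and HIST2H4A with HIST2H4B at least 1.20. A copy that fails the rule in a group is thus not shown to be undetected there. Of the 26 members with a transcript past or without the stem-loop, 16 were measurable in at least 1 group. So were 3 of the 6 whose models all end within 50 bases of it, and 9 of the 40 without a match.

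Measurable members numbered 17 in C4-2B siCTRL cells, 24 with TG, 19 with siMOCOS and 20 with both. In LNCaP the numbers were 11, 16, 14 and 22. The count rule moves with depth, and the LNCaP siMOCOS libraries with TG were the deepest, at 18.9 to 27.1 M, while those without TG held 7.51 to 15.7 M. With a rule of 1 CPM in all 4 libraries, which does not, the numbers were 14, 19, 15 and 17 in C4-2B and 11, 16, 14 and 18 in LNCaP.

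**Figure D1:**
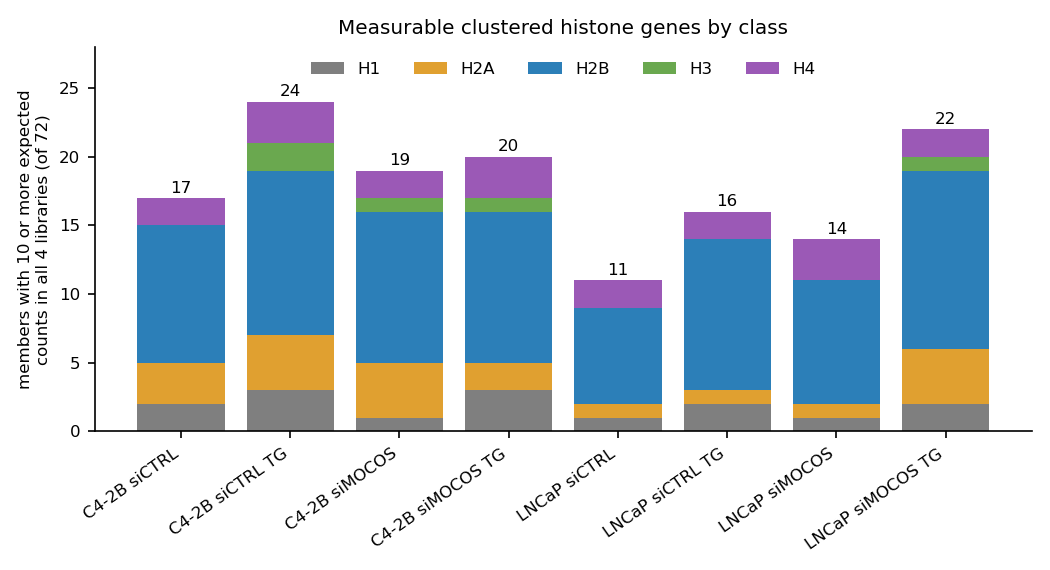
Number of the 72 clustered histone genes with at least 10 expected counts in all 4 libraries, by group (x axis) and by the histone they encode (stacked colours). H2B genes form the greatest part in each group, and the total runs from 11 in LNCaP siCTRL to 24 in C4-2B siCTRL TG.

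The members together took a small share of all counts, and that share was higher after MOCOS knockdown in both lines. In C4-2B siCTRL cells the 4 libraries gave 0.0261%, 0.0256%, 0.0323% and 0.0346%, and in siMOCOS cells 0.0733%, 0.0738%, 0.0637% and 0.0608%. In LNCaP the siCTRL libraries gave 0.0141%, 0.0164%, 0.0172% and 0.0131%, and the siMOCOS libraries 0.0330%, 0.0376%, 0.0333% and 0.0324%. The groups did not overlap in either line. With TG alone the mean share was 0.0387% ± 0.0040 (SD, n = 4) in C4-2B and 0.0219% ± 0.0016 in LNCaP. With TG and knockdown it was 0.0504% ± 0.0149 and 0.0349% ± 0.0086, and those libraries spread widely, from 0.0324% to 0.0656% and from 0.0265% to 0.0443%. These shares are a description and no test was made on them. In bulk RNA, fewer cells that carry a transcript and less of it per cell cannot be told apart.

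**Figure D2:**
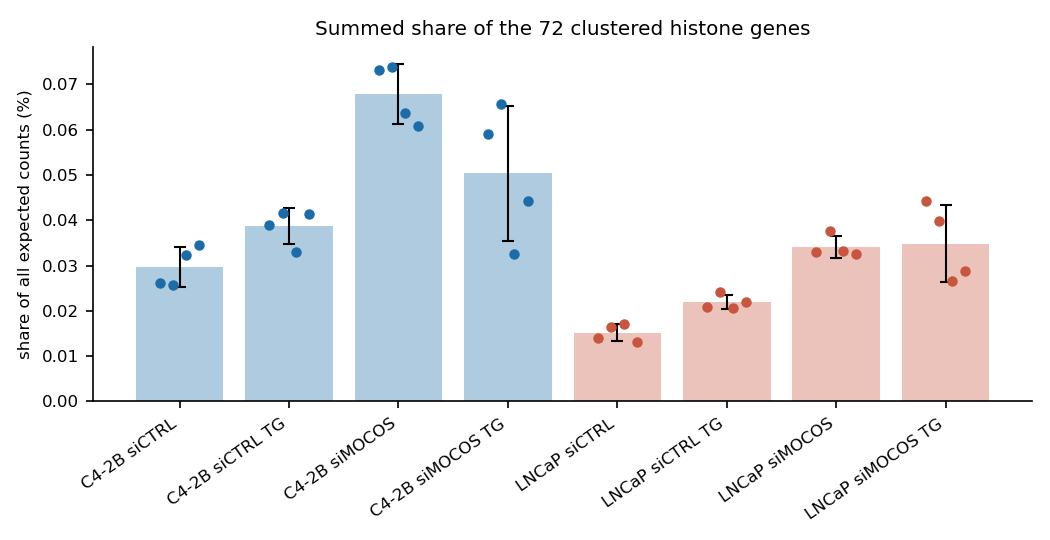
Summed share of the 72 members in all expected counts of a library (y axis, percent), by group; points are libraries, bars means and whiskers SD of 4. Both siMOCOS groups without TG lie above their siCTRL groups.

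H2B genes held 71.5% to 88.7% of the members' counts on average per group. HIST2H2BE alone held 33.4% in C4-2B siCTRL cells with TG and 58.4% in C4-2B siMOCOS cells, the lowest and highest group means. A share of counts grows with transcript length, and the HIST2H2BE model has 2194 bases against 381 for HIST1H2BK, so these shares do not rank molecules. Without HIST2H2BE, HIST1H2BK and HIST1H2BD, the other 69 members gave 0.0092% of counts in C4-2B siCTRL cells, 0.0176% with TG, 0.0116% with siMOCOS and 0.0143% with both. In LNCaP they gave 0.0044%, 0.0098%, 0.0072% and 0.0141%. For these 69, then, the mean with TG was above the mean with knockdown in both lines, the reverse of the order for all 72.

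**Figure D3:**
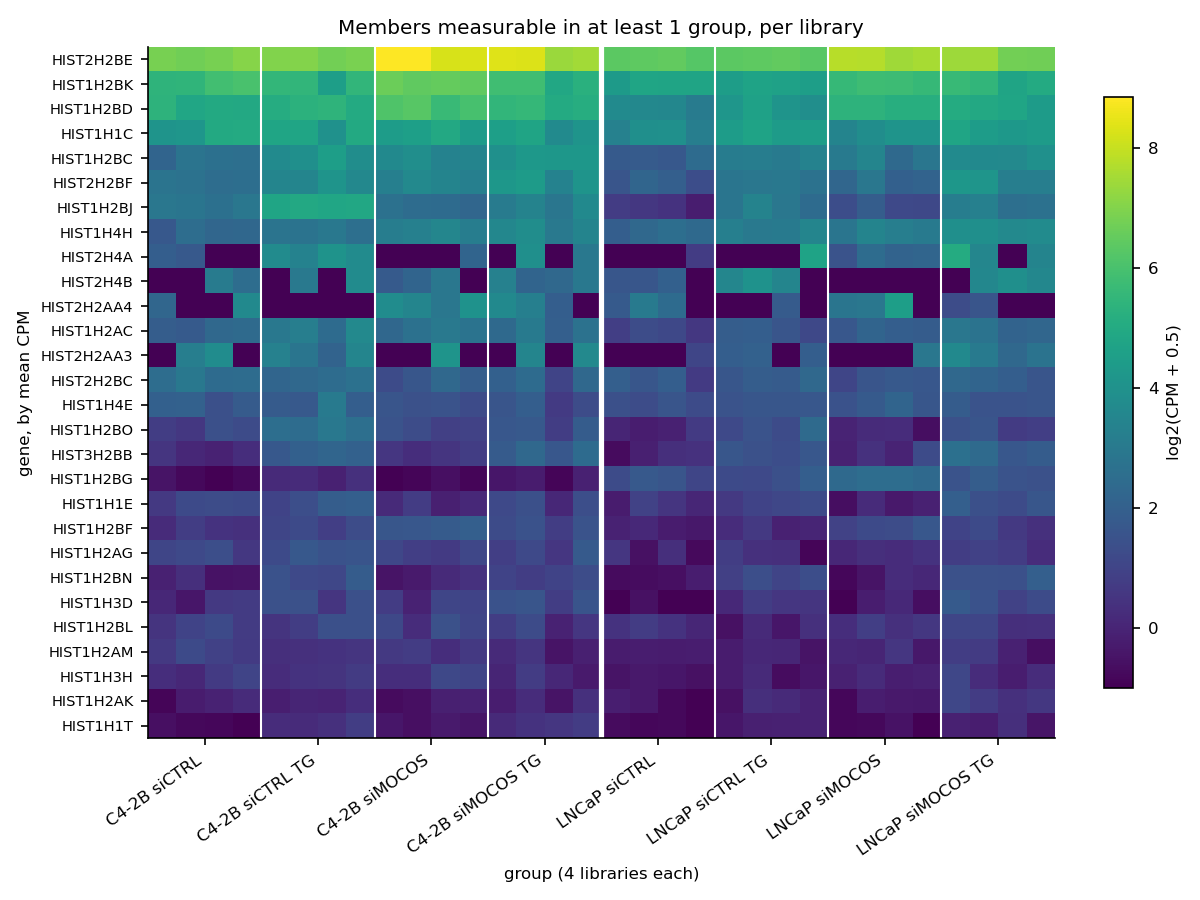
Levels of the 28 members measurable in at least 1 group, as log2(CPM + 0.5), in each of the 32 libraries (columns, by group). HIST2H2BE is the brightest row throughout; HIST2H4A, HIST2H4B, HIST2H2AA3 and HIST2H2AA4 alternate between high values and 0 from library to library.

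Those last 4 genes cannot be read singly. Of the 31-base words in HIST2H4A transcripts, 98.6% occur in HIST2H4B, and all of those in HIST2H2AA3 occur in HIST2H2AA4. HIST2H4A was at 0 in 14 of 32 libraries, HIST2H4B in 12, and HIST2H2AA3 and HIST2H2AA4 in 14 each, and in every such library the other copy was above 0. Calls of single copies are counted in the comparisons without a fold, and each pair is described by its sum, a choice made after the values were seen. Other members share sequence to a lesser degree: the median member had 9.87% of its words in another gene, and 17 members had over 50%. HIST1H2BK, at 86.3%, is the main case among the well-measured genes. HIST1H3D lies wholly within another annotated gene on the same strand, AL031777.3, so its counts are uncertain.

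The first question was what loss of MOCOS does to these transcripts without ER stress. It raised HIST2H2BE, HIST1H2BK, HIST1H2BD, HIST1H2BC and HIST1H2BF, all H2B genes, and the H4 gene HIST1H4H in both lines. In C4-2B, 32 members passed the filter on low counts and 7 of them were called higher at an adjusted p under 0.05 (edgeR's quasi-likelihood test with Benjamini-Hochberg adjustment over all genes tested), where 9.09% of all tested genes were. A single member, HIST1H4C, was called lower, against 8.14% of all. In LNCaP, 28 members passed, 9 were called higher (6.0% of all tested genes) and 0 lower (9.73% of all). At an unadjusted p under 0.05, 2 members were lower in LNCaP, and DESeq2 called 1. The shares of all tested genes at that cutoff and by DESeq2 were not counted. The members' median log2 change was 0.28 in C4-2B and 0.90 in LNCaP, where the median of all genes was 0.00 and -0.02. Some members passed the filter through a single group. In each line 4 reached the filter's CPM in all 4 libraries of exactly 1 group. A further 6 in C4-2B and 5 in LNCaP reached it in all 4 libraries of no group. The counts therefore describe the tested members and not all 72.

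HIST2H2BE, which encodes an H2B protein from the HIST2 cluster, was the member with the most counts. Its C4-2B libraries gave 115, 106, 114 and 132 CPM with siCTRL and 452, 462, 305 and 311 with siMOCOS. Every knockdown library lay above every control, and libraries 1 and 2 above 3 and 4. The log2 change was 1.70 (adjusted p = 1.93e-05, SE 0.21). In LNCaP the values were 82, 85.5, 88.1 and 75.3 CPM with siCTRL and 221, 215, 176 and 189 with siMOCOS. The groups were again apart, with a log2 change of 1.25 (adjusted p = 1.48e-05, SE 0.14).

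HIST1H2BK, another H2B gene, followed in both lines. C4-2B siCTRL libraries gave 42, 43.4, 58.6 and 64.1 CPM and siMOCOS libraries 100.4, 87.2, 90.9 and 87.2. The 4 knockdown values lay close together and above the controls, which split into 2 lower and 2 higher libraries, and the log2 change was 0.80 (adjusted p = 0.023, SE 0.23). That call was lost in 4 of 16 alternative fits, among them those without siCTRL replicate 1 or 2, or siMOCOS library 1. LNCaP means were 25.4 ± 3.35 CPM with siCTRL and 51.6 ± 3.71 with siMOCOS (SD, n = 4), log2 1.00 (adjusted p = 0.000368, SE 0.16). HIST1H2BD, a further H2B gene, gave 12.6, 11.5, 11.2 and 8.14 CPM in LNCaP siCTRL cells and 41, 41.1, 35.3 and 35.9 with siMOCOS. The lowest knockdown library was well above the highest control, and the log2 change of 1.79 (adjusted p = 4.34e-06, SE 0.18) was the second greatest called in that comparison. In C4-2B its log2 change was 0.98 (adjusted p = 0.000576, SE 0.17).

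A further 3 members, HIST1H2BF, HIST1H2BC and HIST1H4H, also rose in both lines, so 6 rose in both, of 7 called in C4-2B and 9 in LNCaP. The share of all tested genes called in both lines was not counted. HIST1H2BF, an H2B gene, averaged 0.889 ± 0.251 CPM with siCTRL and 2.95 ± 0.381 with siMOCOS in C4-2B, log2 1.73 (adjusted p = 0.000228, SE 0.27). In LNCaP it went from 0.417 ± 0.142 to 1.97 ± 0.544 CPM, log2 2.13 (adjusted p = 0.0012, SE 0.39). HIST1H2BC changed by 1.10 (adjusted p = 0.00105, SE 0.20) in C4-2B and by 1.12 (adjusted p = 0.00286, SE 0.23) in LNCaP, where 1 control library overlapped the knockdown range. HIST1H4H was the H4 gene that rose in both: C4-2B gave 2.79, 5.25, 4.31 and 4.38 CPM with siCTRL and 8.46, 9.26, 10.9 and 8.64 with siMOCOS. Control and knockdown libraries did not overlap there, log2 1.15 (adjusted p = 0.00104, SE 0.21), and in LNCaP the log2 change was 0.88 (adjusted p = 0.00323, SE 0.18).

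A few calls were made in 1 line. HIST2H2BF was called in C4-2B, log2 0.80 (adjusted p = 0.016, SE 0.22), a call lost without siMOCOS library 2. In LNCaP, HIST1H2BG went from 2.2 ± 0.585 to 4.96 ± 0.304 CPM, log2 1.14 (adjusted p = 0.00399, SE 0.24). In C4-2B it held at most 0.223 CPM in these groups and did not pass the filter. HIST1H2AC, an H2A gene, rose in LNCaP by a log2 of 1.12 (adjusted p = 0.0129), lost without siMOCOS library 2. HIST1H4C was the member called lower in C4-2B, and it was added to the genes named after its values were seen. Its libraries gave 0.447, 0.999, 0.392 and 0.215 CPM with siCTRL and 0, 0.157, 0.105 and 0.0488 with siMOCOS, at most 11.8 expected counts. The call (adjusted p = 0.0281) was lost in 5 of 16 alternative fits, among them those without siCTRL replicate 2, or siMOCOS library 1 or 4.

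**Figure D4:**
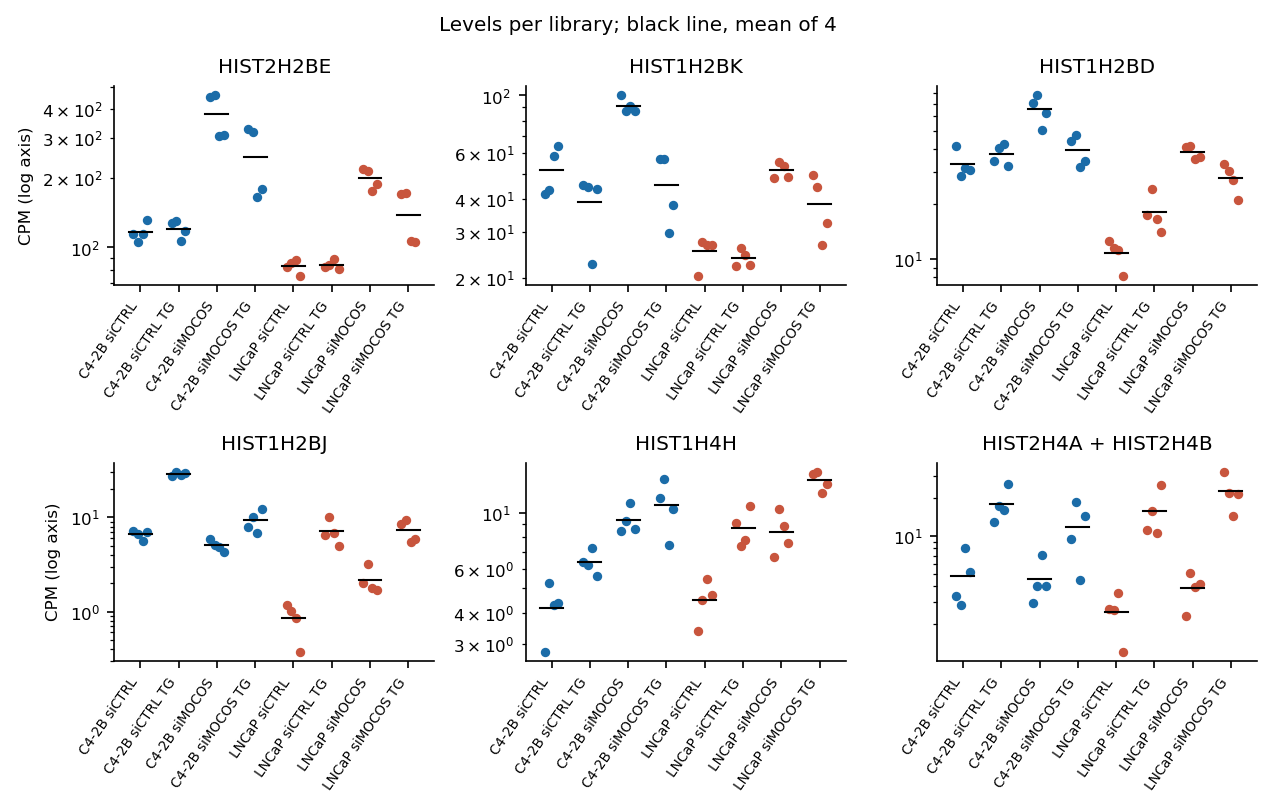
CPM (log axes) in each library for 5 members and 1 summed pair, by group; points are libraries, blue C4-2B and red LNCaP, and black lines are means of 4. HIST2H2BE is higher in every knockdown library than in the controls of its line, and HIST1H2BJ is higher with TG than without in cells given the same siRNA.

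HIST1H2BJ, an H2B gene, was called after knockdown in LNCaP and not in C4-2B. In LNCaP its siCTRL libraries gave 1.18, 1.02, 0.852 and 0.370 CPM and its siMOCOS libraries 1.99, 3.2, 1.78 and 1.71. It rose by a log2 of 1.28 (adjusted p = 0.0184, SE 0.35). That call was lost in 3 of 16 alternative fits, among them those without siCTRL replicate 4 or siMOCOS library 2. In C4-2B it gave 7.09, 6.66, 5.68 and 7.04 CPM with siCTRL and 5.9, 5.13, 4.88 and 4.3 with siMOCOS, a log2 of -0.40 (adjusted p = 0.144, SE 0.18). The difference of the knockdown responses, LNCaP minus C4-2B, was 1.70 (adjusted p = 0.0581, SE 0.38), just over the threshold. No member was called in that test of 36 members, higher (0.0205% of all tested genes) or lower (0.137% of all). At an unadjusted p under 0.05, 3 were higher and 0 lower, and DESeq2 called 1 higher, HIST1H2BJ. Shares of all tested genes were not counted for these.

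The second question was what ER stress does to these transcripts in control cells. Among the H2B genes, TG raised HIST1H2BJ, HIST1H2BN, HIST1H2BO and HIST3H2BB in both lines, while HIST2H2BE and HIST1H2BK did not pass the test. This comparison shares its control libraries with that of knockdown without TG. In C4-2B, 12 of 32 members were called higher, where 21.2% of all tested genes were, and 1 lower (19.3% of all). In LNCaP, 12 of 28 were called higher (24.6% of all) and 0 lower (25.1% of all). No member was lower there at an unadjusted p under 0.05 or by DESeq2. The members' median log2 change was 0.64 and 0.89, against -0.01 and -0.04 over all genes. Some tested members held few counts without TG, such as HIST1H2BN, which was measurable only with TG. Such members could hardly be called lower with TG, whichever the siRNA. The counts and medians therefore hold for the tested members only and not for all 72. Of the 12 called in each line, 9 were the same: HIST1H2AC, HIST1H2BC, HIST1H2BJ, HIST1H2BN, HIST1H2BO, HIST1H3D, HIST1H4H, HIST2H2BF and HIST3H2BB. How many of all tested genes were called in both lines was not counted, so this agreement is not shown to be particular to the members.

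HIST1H2BJ had the smallest adjusted p of the members in both lines. C4-2B libraries gave 7.09, 6.66, 5.68 and 7.04 CPM without TG and 27.3, 30.7, 27.9 and 29.3 with it. The groups were far apart with little spread, and the log2 change was 2.12 (adjusted p = 1.73e-07, SE 0.18). In LNCaP it went from 0.857 ± 0.351 to 7.15 ± 2.19 CPM, log2 3.00 (adjusted p = 6.06e-07, SE 0.32). HIST1H2BN, HIST1H2BO and HIST3H2BB, H2B genes that were near 1 CPM or below without TG except HIST1H2BO in C4-2B, rose by log2 2.48, 1.88 and 2.36 in C4-2B and by 3.23, 2.24 and 2.24 in LNCaP. HIST3H2BB, from the HIST3 cluster, gave 0.949, 0.583, 0.457 and 0.718 CPM in C4-2B without TG and 2.81, 3.58, 4.16 and 3.66 with it. For none of these genes did the groups overlap in either line, and the share of all genes without overlap was not counted. In LNCaP, HIST1H2BO and HIST3H2BB, like HIST1H2BN, were measurable only with TG, so they too could hardly be called lower there.

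HIST1H2BC averaged 5.41 ± 1.0 CPM without TG and 15.9 ± 4.68 with it in C4-2B, log2 1.55 (adjusted p = 1.45e-05, SE 0.20). The LNCaP means were 3.45 ± 1.04 and 8.62 ± 0.901 CPM, log2 1.34 (adjusted p = 8.37e-05, SE 0.22). HIST2H2BF rose by log2 1.10 and 1.13, and HIST1H4H by 0.60 and 0.96. The C4-2B call of HIST1H4H (adjusted p = 0.0324) was lost in 7 of 15 alternative fits. Among them were those without siCTRL replicate 1 or 3, or siCTRL TG replicate 1, 2 or 3, and that with trends of GC content and length removed. HIST1H2BF rose in C4-2B, log2 0.92 (adjusted p = 0.014, SE 0.28), and HIST1H2BD in LNCaP, log2 0.73 (adjusted p = 0.00222, SE 0.18). HIST2H2BA, a pseudogene with a mean of 0.398 CPM with TG, was called in C4-2B (adjusted p = 0.0448). That call was lost in 8 of 14 alternative fits, among them those leaving out any of 7 of the 8 libraries. HIST1H3D, the H3 gene with uncertain counts, averaged 0.0451 ± 0.0902 CPM without TG and 0.936 ± 0.246 with it in LNCaP, where 3 of 4 control libraries were at 0, so no fold is given (adjusted p = 0.000375). In C4-2B it changed by 1.30 (adjusted p = 0.024, SE 0.44). That call was lost in 6 of 15 alternative fits, among them those without siCTRL replicate 1 or 2, or siCTRL TG replicate 1, 2 or 4.

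HIST2H2BE and HIST1H2BK, the 2 members with the most counts, did not pass the test with TG. HIST2H2BE gave 128, 131, 107 and 118 CPM in C4-2B with TG and 82.2, 83.7, 88.9 and 80.8 in LNCaP. Both sets overlapped the libraries without TG, and the log2 changes were 0.04 (adjusted p = 0.884, SE 0.21) and 0.02 (adjusted p = 0.911, SE 0.14). HIST1H2BK gave -0.42 (adjusted p = 0.162, SE 0.23) and -0.09 (adjusted p = 0.68, SE 0.16). In C4-2B its replicate 3 with TG, at 22.6 CPM, lay apart from the other 3, at 43.8 to 45.5 CPM.

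Among linker histone genes, HIST1H1C was called with TG in LNCaP and HIST1H1T in C4-2B. HIST1H1C, which encodes the H1.2 protein, averaged 12 ± 3.24 CPM without TG and 22.6 ± 2.43 with it in LNCaP, log2 0.92 (adjusted p = 0.000601, SE 0.19). In C4-2B its libraries gave 16.5, 17.4, 31.1 and 32.1 CPM without TG and 26.9, 27.4, 15.3 and 31.2 with it. The sets overlapped and no change was called, log2 0.05 (adjusted p = 0.899, SE 0.27). HIST1H1T, which encodes the testis H1 histone, averaged 0.0790 ± 0.0690 CPM without TG and 0.837 ± 0.254 with it in C4-2B (adjusted p = 7.76e-05), at no more than 32.4 expected counts in a library. None of these differences between the lines was shown: in the test of the TG response between lines 0 of 36 members were called higher (0.417% of all tested genes) and 0 lower (0.431% of all). At an unadjusted p under 0.05, 4 were higher and 1 lower, and DESeq2 called 1 lower, HIST1H2BG. Shares of all tested genes were not counted for these.

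**Figure D5:**
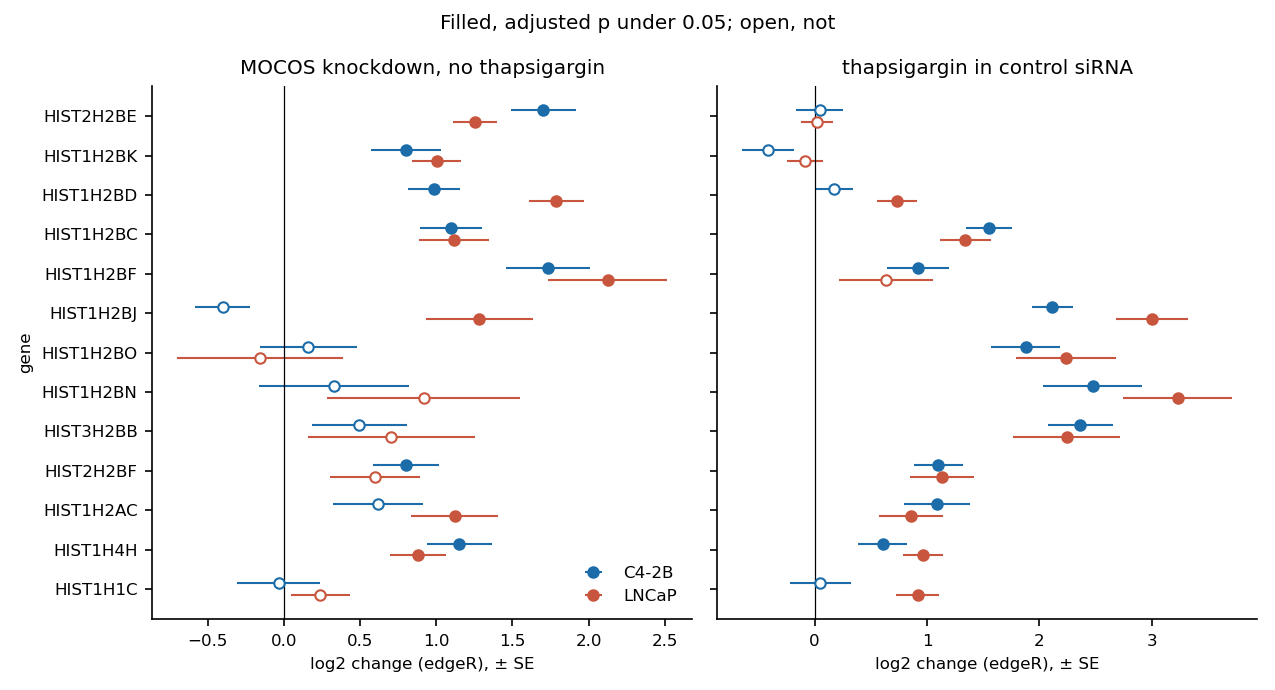
Log2 change (x axis) with its standard error for 13 members (y axis) after knockdown without TG (left) and after TG in siCTRL cells (right), in C4-2B (blue) and LNCaP (red); filled points passed an adjusted p under 0.05. HIST2H2BE and HIST1H2BK are filled on the left and open on the right, and HIST1H2BN, HIST1H2BO and HIST3H2BB are open on the left and filled on the right.

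The summed pair of H4 genes HIST2H4A and HIST2H4B rose with TG in both lines. In C4-2B the sums were 3.35, 2.83, 8.03 and 5.17 CPM without TG and 12.9, 17.4, 16.2 and 25.8 with it. No library with TG fell within the range of those without, log2 1.90 (adjusted p = 0.00127, SE 0.40). In LNCaP they were 2.65, 2.59, 3.58 and 1.2 CPM without TG and 11.1, 15.7, 10.7 and 25.6 with it, log2 2.65 (adjusted p = 5.00e-06, SE 0.34). In siMOCOS cells the changes with TG were 1.42 (adjusted p = 0.00923, SE 0.40) and 2.61 (adjusted p = 5.14e-06, SE 0.34). The summed pair HIST2H2AA3 and HIST2H2AA4 had TG changes of -0.33 (adjusted p = 0.582, SE 0.44) in C4-2B and -0.39 (adjusted p = 0.522, SE 0.48) in LNCaP. It was called in LNCaP after knockdown with TG, log2 1.43 (adjusted p = 0.0342, SE 0.46). The call of HIST2H2AA4 as lower with TG in C4-2B is thus one of a single copy whose sum was not called.

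With TG in both arms, knockdown cells again held more HIST2H2BE and HIST1H4H in both lines, and in C4-2B less HIST1H2BJ and HIST1H2BO. In C4-2B, 3 of 32 members were called higher (9.21% of all tested genes) and 4 lower (7.6% of all). In LNCaP, 8 of 28 were called higher (11.7% of all) and 0 lower (10.2% of all), and neither an unadjusted p under 0.05 nor DESeq2 gave any lower. HIST2H2BE was again called higher, at 328, 318, 167 and 179.7 CPM in C4-2B and 171, 172, 107 and 106 in LNCaP. Libraries 1 and 2 were far above 3 and 4 in each line, and all lay above the TG controls, with log2 changes of 1.07 (adjusted p = 0.00161, SE 0.21) and 0.75 (adjusted p = 0.00129, SE 0.14). With libraries 1 and 2 alone the changes were 1.45 and 1.02, and with 3 and 4 alone 0.54 and 0.34. HIST1H4H was the other member called higher in both lines, log2 0.79 (adjusted p = 0.013, SE 0.21) and 0.65 (adjusted p = 0.0111, SE 0.17). In LNCaP, HIST1H2BK, HIST1H2BD, HIST1H2BC, HIST1H2BL, HIST2H2BF and HIST1H2AC were also called, by 0.60 to 1.30 on the log2 scale. The HIST1H2BC call (adjusted p = 0.0446) was lost in 13 of 16 alternative fits, among them those without any 1 of the 8 libraries. Those of HIST1H2BL, HIST1H2BD and HIST2H2BF were lost without siMOCOS TG library 1, among others. Those of HIST1H4H were each lost in 2 of 16 alternative fits, among them that without siMOCOS TG library 2 in C4-2B and siCTRL TG replicate 3 in LNCaP. With libraries 3 and 4 alone the LNCaP count was 1 in place of 8, and the share of all genes called in that fit was not counted.

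HIST1H2BJ went the other way in C4-2B. With TG its siCTRL libraries gave 27.3, 30.7, 27.9 and 29.3 CPM and its siMOCOS libraries 7.98, 10.2, 6.78 and 12.3. The highest knockdown library was well below the lowest control, and the log2 change was -1.59 (adjusted p = 4.84e-06, SE 0.17). In LNCaP the same comparison gave 0.06 (adjusted p = 0.904, SE 0.27). HIST1H2BO fell in C4-2B as well, from 5.78 ± 0.957 to 2.5 ± 0.856 CPM, log2 -1.17 (adjusted p = 0.00902, SE 0.29). The remaining falls were of barely detected genes. HIST1H4C gave 0.446, 0.561, 2.03 and 0.792 CPM with siCTRL and 0.105, 0.0968, 0 and 0.0401 with siMOCOS (adjusted p = 0.0012), and HIST2H2AC, an H2A gene, 0.574, 0.820, 0.793 and 0.339 and 0.262, 0.145, 0.0521 and 0.240 (adjusted p = 0.0168). The HIST2H2AC call was lost without siCTRL TG replicate 2.

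In knockdown cells TG raised several H2B genes, such as HIST1H2BJ and HIST3H2BB, and lowered HIST2H2BE in both lines and HIST1H2BG in LNCaP. In C4-2B, 7 of 32 members were called higher (20.7% of all tested genes) and 3 lower (17.2% of all), so the rises there were near the share of all genes. In LNCaP, 13 of 28 were called higher (25.1% of all) and 2 lower (21.9% of all). HIST1H1E, HIST1H2BC, HIST1H2BJ, HIST1H2BN, HIST2H2BF and HIST3H2BB rose in both lines. How many of all tested genes were called in both was not counted. The HIST1H2BC call was lost in 3 of 16 alternative fits in C4-2B and in 1 in LNCaP. Those of HIST1H2BN and HIST2H2BF in C4-2B, and of HIST3H2BB in LNCaP, were each lost in 1 of 16. HIST1H1E, a linker histone gene, changed by 1.26 (adjusted p = 0.0251, SE 0.42) in C4-2B and by 2.75 (adjusted p = 7.39e-05, SE 0.46) in LNCaP. In siMOCOS cells of both lines it was measurable with TG and not without it. At least 1 library of each group without TG thus held under 10 expected counts of it, and it could hardly be called lower. Its C4-2B call was lost in 8 of 16 alternative fits, among them those without siMOCOS library 1, 3 or 4, or siMOCOS TG library 1, 2 or 4. HIST2H2BE fell by 0.59 (SE 0.21, adjusted p = 0.0333) in C4-2B and by 0.48 (SE 0.14, adjusted p = 0.00963) in LNCaP on the log2 scale. The C4-2B libraries overlapped and the call was lost without siMOCOS library 1 or 2, or siMOCOS TG library 3 or 4. HIST1H2BG gave 4.69, 5.21, 5.24 and 4.71 CPM in LNCaP siMOCOS cells without TG and 2.35, 3.27, 2.34 and 2.22 with it. The groups did not overlap, log2 -0.91 (adjusted p = 0.00408, SE 0.24), a call lost with knockdown libraries 1 and 2 alone. HIST1H2BK averaged 91.4 ± 6.23 CPM without TG and 45.5 ± 13.8 with it in C4-2B, log2 -0.97 (adjusted p = 0.0032, SE 0.23). HIST1H2BD fell there by 0.70 on the log2 scale (adjusted p = 0.00335). With libraries 3 and 4 alone, 4 members rose and 6 fell in C4-2B, and 8 rose and 5 fell in LNCaP. The shares of all genes called in those fits were not counted, so the shift is not shown to be particular to the members.

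The interaction asked whether the knockdown effect differed with and without TG. No member was called, in C4-2B higher (0.0283% of all tested genes) or lower (0.0425% of all), or in LNCaP higher (0.00724% of all) or lower (0.0% of all). At an unadjusted p under 0.05, edgeR gave 7 lower and 1 higher in C4-2B, and 5 and 2 in LNCaP. The shares of all tested genes at that cutoff were not counted, so these counts are not shown to be particular to the members. DESeq2 called 1 lower in each line, HIST1H2BJ in C4-2B and HIST1H2BD in LNCaP. By edgeR these were -1.19 (adjusted p = 0.0986, SE 0.25) and -1.15 (adjusted p = 0.12, SE 0.24). For HIST2H2BE the interaction was -0.63 (adjusted p = 0.694, SE 0.29) in C4-2B and -0.50 (adjusted p = 0.635, SE 0.20) in LNCaP. The smaller knockdown effect on HIST2H2BE with TG is therefore not shown by this test.

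The lines themselves differed. In siCTRL cells without TG, 15 of 36 members tested were lower in LNCaP than in C4-2B, where 20.1% of all tested genes were, and 2 were higher (21.1% of all). Fitted per line, 32 members passed the filter in C4-2B and 28 in LNCaP. HIST1H2AM was measurable only in C4-2B groups, and HIST1H2BG only in LNCaP groups. Such members could hardly be called in the other direction, so the counts hold for the tested members and not for all 72. HIST1H2BJ was the lower member with the smallest adjusted p, at 0.857 CPM in LNCaP and 6.62 in C4-2B, log2 -2.88 (adjusted p = 9.44e-10, SE 0.28). HIST1H2BD differed by -1.59 (adjusted p = 2.84e-08, SE 0.18), HIST1H2BK by -1.04 (adjusted p = 0.000202, SE 0.21) and HIST1H1C by -1.02 (adjusted p = 0.00153, SE 0.25). HIST2H2BE differed least among the 15, log2 -0.50 (adjusted p = 0.0324, SE 0.19), a call lost without C4-2B replicate 4, or LNCaP replicate 1 or 4. The calls of HIST1H2BC and HIST1H2BF were lost without C4-2B replicate 2 or LNCaP replicate 3, among others. HIST1H2AM, an H2A gene whose model shares 346 exonic bases with HIST1H3J on the same strand, differed by -1.89 (adjusted p = 0.00217, SE 0.49). HIST1H2BG went against them: LNCaP libraries gave 1.86, 2.83, 2.55 and 1.57 CPM and C4-2B libraries 0.223, 0.0833, 0 and 0.0718. It was all but absent in C4-2B, log2 4.37 (adjusted p = 2.68e-08, SE 0.51). Its neighbour HIST1H2AE was the other member higher in LNCaP, at 0.540 ± 0.230 CPM against 0.125 ± 0.0860 (adjusted p = 0.0129) and at no more than 12.6 expected counts in a library.

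Neighbouring genes were compared because many H2A and H2B genes lie head to head. In GENCODE 29, 12 pairs of an H2A and an H2B member start on opposite strands within 500 bases of each other, at 124 to 331 bases. Models that hold the coding sequence alone begin at its first base. The distances are therefore between model starts, and not always between transcription starts. In 9 of the 12 pairs the H2B gene was measurable in more groups than its H2A partner, and in 0 the reverse. In 3 the numbers were equal, 2 of them with neither gene measurable. The 9 include HIST2H2AA4 with HIST2H2BC. HIST2H2AA4 cannot be read singly and HIST2H2BC is annotated as a pseudogene, so that pair says little. The count rule is not per length, and model lengths differ within pairs. HIST2H2BE has 2194 bases against 390 for HIST2H2AC, while HIST1H2BJ has at most 950 against 2250 for HIST1H2AG. The numbers of groups therefore do not rank the genes of a pair by molecules. The models of HIST2H2BE and HIST2H2AC start 323 bases apart. After knockdown with TG in C4-2B HIST2H2BE rose by a log2 of 1.07 and HIST2H2AC was called lower (edgeR adjusted p = 0.0168), a call lost in 1 of 16 alternative fits. HIST2H2AC was barely detected, measurable in no group, and had 50.6% of its words in other genes. Opposite movement of these neighbours is therefore uncertain. HIST1H2BJ and HIST1H2AG, 292 bases apart, gave 2.12 (adjusted p = 1.73e-07, SE 0.18) and 0.55 (adjusted p = 0.174, SE 0.32) with TG in C4-2B. HIST1H2BC and HIST1H2AC, 219 bases apart, both rose with TG in both lines, HIST1H2AC by 1.08 and 0.85. The HIST1H2AC calls with TG in siCTRL cells were lost when trends with GC content and length were removed, and the LNCaP call also without siCTRL replicate 1 or 4.

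Genes that make or handle histone transcripts, and S-phase genes, were read beside the members. Over all genes tested, 8.14% in C4-2B and 9.73% in LNCaP were lower after knockdown, and 9.09% and 6.0% higher. With TG 19.3% and 25.1% were lower, and 21.2% and 24.6% higher. Of 22 S-phase genes 21 were lower after knockdown in C4-2B and 19 in LNCaP, with 0 higher in either. Their median log2 change was -1.61 and -1.09, against 0.00 and -0.02 over all genes. With TG 9 and 12 were lower and 1 in each higher. CCNA2, the S-phase cyclin, went from 51.9 ± 3.57 to 12.5 ± 0.624 CPM after knockdown in C4-2B and from 43.5 ± 5.99 to 13.1 ± 2.1 in LNCaP. Of 24 genes of histone mRNA transcription, 3' end processing and decay, 5 were lower after knockdown in C4-2B and 10 in LNCaP, and 0 and 1 were higher. With TG 7 and 11 were lower, and 2 in each line higher. Their medians were -0.29 and -0.25 after knockdown and -0.08 and -0.34 with TG. SLBP fell with TG in both lines, log2 -0.61 (adjusted p = 0.00423, SE 0.15) and -0.82 (adjusted p = 4.61e-06, SE 0.10), and after knockdown in LNCaP, -0.56 (adjusted p = 0.00153, SE 0.11). In C4-2B its knockdown change was -0.31 (adjusted p = 0.179, SE 0.15). NPAT gave -0.50 (adjusted p = 0.044, SE 0.16) after knockdown in LNCaP and -0.34 (adjusted p = 0.188, SE 0.17) in C4-2B. The part of these changes in the members' levels was not tested.

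Histone genes outside the clusters were tested as a separate list of 11. Of these, 4 were lower after knockdown in C4-2B and 3 in LNCaP, and 0 and 1 were higher. With TG 5 in each line were lower, and 2 in C4-2B and 3 in LNCaP were higher. The shares of all tested genes called lower were 8.14% and 9.73% after knockdown and 19.3% and 25.1% with TG, and those called higher 9.09% and 6.0%, and 21.2% and 24.6%. The medians of the 11 genes were -0.39 and -0.10 after knockdown and -0.47 and 0.01 with TG. H1F0, the linker histone of non-dividing cells, averaged 176 ± 14.2 CPM without TG and 596 ± 59 with it in C4-2B, and 83.2 ± 1.75 and 308 ± 34 CPM in LNCaP, a rise of 1.76 and 1.89 on the log2 scale (adjusted p = 6.87e-08 and 5.40e-08). H2AFX, the H2A variant phosphorylated at DNA breaks, fell with TG by 2.06 on the log2 scale (adjusted p = 4.29e-06) and 1.61 (adjusted p = 0.000945). H3F3A and H3F3B, which encode the same H3.3 protein, moved apart with TG: H3F3A changed by -1.65 and -1.76 and H3F3B by 0.37 and 0.62, all called. CENPA, the centromeric H3, fell after knockdown by 1.65 (adjusted p = 3.60e-06) and 1.54 (adjusted p = 2.16e-05). Of 22 histone chaperone and deposition genes, 10 were lower after knockdown in C4-2B and 12 in LNCaP, and 0 higher, with medians of -0.37 and -0.42. CHAF1B, a subunit of the chaperone that loads new histones at the fork, changed by -1.53 (adjusted p = 4.48e-08, SE 0.11) and -1.15 (adjusted p = 2.85e-05, SE 0.14).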

How the data were processed

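The deposited table holds expected counts per gene that the authors obtained with STAR 2.6.1d and Salmon 1.5.2 on hg38 after trimming with Trim Galore 0.6.7 and cutadapt 3.4 and quality checks with FastQC 0.11.9, per the submitters' processing notes. Their annotation release is not given in the sources used here. Expected counts were rounded for the tests. Both siRNAs were pooled, and the 4 columns of a knockdown group are called libraries 1 to 4. In each knockdown group, libraries 1 and 2, and 3 and 4, were closer to each other over all genes than to the rest. In C4-2B siMOCOS cells the chi-square per gene was 11.7 and 11.5 within these pairs, and 69.5 to 83.6 between them. Control libraries also spread, from 5.64 to 62.3 in C4-2B siCTRL cells. The p-values nevertheless take the 4 libraries of a group as replicates.

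Genes passed edgeR's filterByExpr in 14127 (C4-2B), 13806 (LNCaP) or 14628 (both lines) cases. CPM used TMM-scaled library sizes. They are not per length, so levels were not ranked between genes. edgeR 4.0.16 quasi-likelihood tests under R 4.3.3 were fitted per line, and over both lines for differences between them. Adjusted p-values are Benjamini-Hochberg over all genes tested. Shares of all tested genes were counted only at the adjusted threshold of the main edgeR fits, and not for unadjusted p-values or DESeq2. Standard errors were derived from the F statistic. The model was tested on simulated data. No libraries were identical. Alternatives were RLE size factors, no filter, removal of GC and length trends (mgcv 1.9.3), DESeq2 1.42.0, 1 joint fit, a replicate block and leaving out each library.

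The members and lists were chosen with earlier results of these data known. Members named were the 12 with the highest mean CPM, up to 3 called rises and 3 called falls per comparison at a mean of at least 1 CPM, the H1 and HIST3 or HIST4 members tested, and the 3 tested members with the lowest mean. From each other list up to 3 called genes with the smallest adjusted p were named, with SLBP, NPAT and MOCOS. SLBP also stands in the S-phase list.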

Additional observations from a re-analysis of the deposited data

Results flagged for a closer look

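In 14 of 183 groups of 4 libraries tested, 1 library lay apart from the other 3 by Dixon's criterion at the 95% level, which chance meets in about 1 of 20 groups. In C4-2B siCTRL cells with TG, library 3 was low for HIST1H2BK (22.6 CPM) and HIST1H3D (0.942 CPM) and high for HIST2H2BF (16.6 CPM). Library 3 of C4-2B siMOCOS cells with TG was low for HIST1H3D as well (1.25 CPM). HIST1H2BC was low in library 1 of C4-2B siMOCOS cells with TG (14.9 CPM) and high in library 4 of LNCaP siCTRL cells (5.0 CPM). HIST1H2BK was low in library 1 of LNCaP siCTRL cells (20.4 CPM). In LNCaP siMOCOS cells with TG, HIST1H2BG was high in library 2 (3.27 CPM) and HIST1H2BN in library 4 (3.48 CPM). The summed share of all members was high in library 2 of LNCaP siMOCOS cells (0.0376%). Single copies of the near-identical pairs gave the others, each above 3 libraries at 0: HIST2H2AA4 in library 3 of LNCaP siCTRL cells with TG (3.02 CPM), and HIST2H4A in library 4 of C4-2B siMOCOS (4.05 CPM), LNCaP siCTRL (1.20 CPM) and LNCaP siCTRL cells with TG (25.6 CPM).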

How the results depend on the processing

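Of 96 calls of named members, 57 held under every alternative run and 39 were lost under at least 1; the cause was not tested. Counts of members called that moved over 1.5 times were mostly small counts of lower members. For C4-2B knockdown without TG, 1 lower became 4 without a filter or with both lines in 1 fit, 3 with DESeq2, 2 with GC content and length trends removed, and 0 with knockdown columns 3 and 4 alone. For C4-2B knockdown with TG, both lines in 1 fit gave 7 lower, and columns 3 and 4 gave 1 higher. For TG in C4-2B siMOCOS cells, columns 3 and 4 gave 4 higher and 6 lower. For LNCaP knockdown with TG they gave 1 higher. For TG in LNCaP siMOCOS cells they gave 8 higher and 5 lower, columns 1 and 2 gave 1 lower, and RLE size factors and DESeq2 gave 4 lower. For LNCaP knockdown without TG, DESeq2 gave 1 lower. The interaction gave 1 lower in C4-2B and 1 in LNCaP with DESeq2 and with columns 1 and 2, and 1 in LNCaP with columns 3 and 4. The line difference in TG response gave 1 lower with DESeq2 or with trends removed. That in knockdown response gave 1 higher under both and, with columns 1 and 2, 1 higher and 1 lower. With the pairs summed, TG in C4-2B gave 0 lower. Both sets of 2 columns and the summed pairs were chosen after seeing the data. The shares of all genes called under these alternatives were not counted. At 20 expected counts, 11 members were measurable in C4-2B siCTRL and 7 in LNCaP siCTRL cells.

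Replicate numbers did not pair the samples: correlations of same-numbered libraries ran from -0.437 to 0.271, and 1 of 8 fitted best with its own number. With a replicate block, TG in siCTRL cells gave 10 rises and 0 falls in C4-2B, and 14 rises and 1 fall in LNCaP.

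Leaving out 1 replicate at a time, lower calls ran from 0 to 3 for C4-2B knockdown without TG, from 2 to 5 for TG in siMOCOS cells of either line, and from 0 to 1 for the C4-2B interaction, TG in LNCaP, LNCaP knockdown with TG and the line difference in TG response. Higher calls for LNCaP knockdown with TG ran from 4 to 9. The change of the single copy HIST2H4A with TG in LNCaP, fitted with 3 of 4 libraries of each group at 0, is no measure of size: it ran from 9.73 on the log2 scale down to -4.92, the latter without siCTRL TG replicate 4. Members with under 10 counts are limited by depth.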
